A study of Mus musculus with 4 samples.

Results

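Cycling immune cells of the wound were chosen by measured expression, as all cells with at least 3 raw UMIs of Mki67 and Top2a together, a UMI being 1 counted RNA molecule. Of the 19827 cells that passed filters of 200 or more genes and no more than 10% mitochondrial UMIs, 140 met this rule, or 0.706%. The cells were live CD45+ leukocytes sorted from 3 mm punch wounds in the back skin of male mice. The mice were wild-type C57BL6/J (Angptl4+/+) or Angptl4-/-, which lack the gene for the secreted protein angiopoietin-like 4 in all cells, and wounds were taken on day 1 or day 5 post wounding (1 dpw, 5 dpw). Each of the 4 conditions was 1 droplet 3' library. The number of mice per library was not given in the sources used here, so no difference between conditions had a replicate check. Therefore no test was run, and all intervals are 95% intervals that cover counting error only.

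Cells that divide copy their DNA in S phase and separate the chromosomes in mitosis. Before S phase, the MCM helicase is loaded on DNA at replication origins (licensing), and polymerases, the sliding clamp Pcna and ribonucleotide reductase then support synthesis. Cyclin B with the kinase Cdk1 starts mitosis, while the anaphase-promoting complex with its ubiquitin-conjugating enzyme Ube2c ends it. Ki-67, encoded by Mki67, coats mitotic chromosomes and is absent from resting cells, and Top2a untangles replicated DNA. Lymphocytes such as T cells and NK cells are known to divide in tissues once activated, whereas mature neutrophils do not divide.

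The genes that chose the cells lie on separate chromosomes. Mki67 (ENSMUSG00000031004) occupies chr7:135689784-135716361 and Top2a (ENSMUSG00000020914) chr11:98992943-99024189, both on the minus strand of mm10. Promoter stretches of both are given with those of Ube2c, a mitotic gene, and of Mcm6 and Hells, which act in replication, since these genes were high together in the cells described here. Each stretch is the 150 bases before the RefSeq transcription start (GRCm38.p6), read 5′ to 3′ on the gene's strand. Capitals mark matches, on either strand, to letters known from promoters of this kind. TTTGAA is the core of the CHR element of mitotic genes, and a match on the opposite strand reads TTCAAA. The box written CCAAT binds the factor NF-Y, and its opposite strand reads ATTGG. The E2F site of replication genes was searched as TTTCCCGC and, as another form of it, as TTTGGCGC.
Mki67 (chr7:135716380-135716529, minus strand): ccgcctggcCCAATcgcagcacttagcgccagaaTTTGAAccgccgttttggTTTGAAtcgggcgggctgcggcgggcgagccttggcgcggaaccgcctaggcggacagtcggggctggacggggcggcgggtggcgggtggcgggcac
Top2a (chr11:99024190-99024339, minus strand): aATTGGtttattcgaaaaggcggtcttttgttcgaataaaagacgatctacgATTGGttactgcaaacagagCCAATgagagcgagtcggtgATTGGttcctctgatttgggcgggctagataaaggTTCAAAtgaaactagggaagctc
Ube2c (chr2:164769779-164769928, plus strand): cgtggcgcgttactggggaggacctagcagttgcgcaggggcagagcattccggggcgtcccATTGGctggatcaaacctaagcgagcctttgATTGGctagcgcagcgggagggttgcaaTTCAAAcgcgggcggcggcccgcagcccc
Mcm6 (chr1:128359706-128359855, minus strand): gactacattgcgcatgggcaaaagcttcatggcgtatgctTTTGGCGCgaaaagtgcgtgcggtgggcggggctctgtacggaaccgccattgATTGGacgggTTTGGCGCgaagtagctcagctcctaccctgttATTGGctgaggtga
Hells (chr19:38930840-38930989, plus strand): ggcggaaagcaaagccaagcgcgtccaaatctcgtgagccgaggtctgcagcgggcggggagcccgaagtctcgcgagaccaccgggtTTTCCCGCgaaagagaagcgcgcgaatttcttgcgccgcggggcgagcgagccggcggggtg

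In 300-base windows around the start, TTTGAA was found in 40 of 60 promoters of the 62 mitotic genes listed here (66.7%) and in 17.9% of all 32851 promoters. Of 44 promoters of the 44 replication genes, 8 held TTTGAA (18.2%). CCAAT was found in 73.3% of the mitotic promoters, 56.8% of the replication promoters and 37.4% of all promoters. TTTCCCGC or TTTGGCGC was found in 12 of the 44 replication promoters (27.3%), 3 of the 60 mitotic promoters (5.0%) and 1.56% of all promoters. These matches describe letters in the reference and are not binding sites.

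Where 4 values follow one another below, they stand for the libraries in the order Angptl4+/+ 1 dpw, Angptl4+/+ 5 dpw, Angptl4-/- 1 dpw, Angptl4-/- 5 dpw. These held 5346, 4945, 4798 and 4738 passing cells and 32962595, 29746688, 27472052 and 26981596 UMIs. Cycling cells were deeper than the others of their library. Their median UMIs were 13827, 18052, 16329 and 22568, against 4967, 3835, 4812 and 3718 in all other cells. A rule on raw UMIs favours deep cells, and the part of depth in the shares below was not tested other than by thinning. The median share of mitochondrial UMIs was 1.63%, 4.39%, 2.24% and 3.72% in cycling cells and 0.454%, 0.755%, 0.378% and 0.444% in the rest. No cycling cell had a barcode that another library shared, although 96 of the 19827 cells did. Of the 140 cycling cells, 7 were among the 903 cells with the highest doublet scores.

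Most cycling cells came from wounds at 5 dpw. There were 19 in Angptl4+/+ wounds at 1 dpw (0.355%, 0.214 to 0.554) and 63 at 5 dpw (1.27%, 0.980 to 1.63). Angptl4-/- wounds held 9 at 1 dpw (0.188%, 0.0858 to 0.356) and 49 at 5 dpw (1.03%, 0.766 to 1.36). The share at 5 dpw was 3.58 times that at 1 dpw in Angptl4+/+ wounds (2.15 to 5.98) and 5.51 times in Angptl4-/- wounds (2.71 to 11.2). After each cell was thinned to 2000 UMIs and called by at least 1 UMI, these ratios were 1.80 and 2.28. With at least 5 UMIs they were 7.10 and 8.61. With both genes detected, an alternative chosen after seeing the data, they were 25.4 and 12.8. The Angptl4-/- to Angptl4+/+ ratio was 0.528 (0.239 to 1.17) at 1 dpw and 0.812 (0.560 to 1.18) at 5 dpw. Both intervals include 1, and with 1 library per genotype they cover counting error only and decide nothing about the genotypes. With at least 2 UMIs the ratio at 1 dpw was 0.557 (0.338 to 0.918), which excludes 1, and after thinning it was 0.880 (0.5998 to 1.29). The thinned ratio at 5 dpw was 1.12 (0.845 to 1.47). With both genes detected, the ratio at 1 dpw was 1.67 (0.279 to 9.998), on 3 and 2 cells.

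The 140 cells were not alike in how much of the division programme they carried. Their Mki67 and Top2a sum ran from 3 to 231 UMIs, with a median of 9. Both genes were detected in 90 cells, only Mki67 in 37 and only Top2a in 13. Of 62 mitotic genes in 3 lists (kinases and checkpoint, centromere and kinetochore, spindle and cytokinesis), none of which is Mki67 or Top2a, the 90 cells with both genes had a median of 45 detected, with a range of 0 to 62. The 50 cells with 1 gene had a median of 3 (0 to 43). Median counts of the 44 replication genes were 32 and 5. At least 3 UMIs of Ccnb1, Cdk1, Birc5 and Ube2c together were seen in 75 of the 90 cells with both genes and in 7 of the 50 with 1 gene. The median depths of the 2 sets were 23131 and 13675.5 UMIs.

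The name cycling therefore had uneven backing between the libraries. In Angptl4+/+ wounds at 1 dpw, only 2 of the 19 cells had both genes and 16 had Mki67 alone, and the median was 3 mitotic genes. At 5 dpw, 47 of 63 Angptl4+/+ cells had both genes and the median was 35 mitotic genes. Angptl4-/- wounds had 3 of 9 cells with both genes at 1 dpw and 38 of 49 at 5 dpw, with medians of 7 and 40 mitotic genes. Cells with exactly 3 rule UMIs had medians of 3, 3.5, 1 and 2 mitotic genes in the 4 libraries. Just outside the rule, the 27, 23, 14 and 28 cells with 2 UMIs had medians of 2, 4, 2.5 and 3. By their median number of mitotic genes, cells at the threshold were thus not separated from those below it. Replication genes were not compared below it. Among cells with at least 8 rule UMIs, which numbered 3, 42, 3 and 34, the medians were 2, 49.5, 31 and 46.5.

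**Figure D1:**
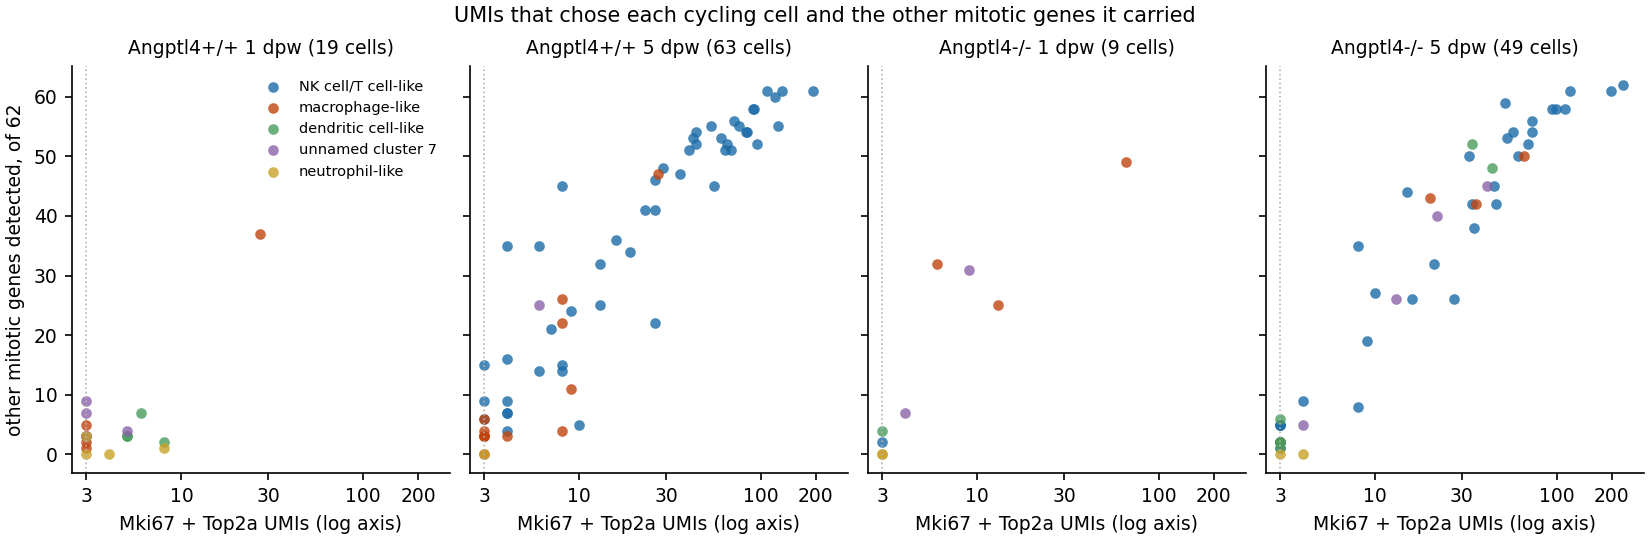
Each point is 1 of the 140 cycling cells, coloured by class, with the sum of Mki67 and Top2a UMIs on the x axis (log scale) and the number of 62 mitotic genes detected on the y axis, in 1 panel per library. At 5 dpw the cells with 8 or more UMIs had medians of 49.5 and 46.5 mitotic genes, while cells at 3 UMIs (dotted line) had at most 15.

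The lineages of the cycling cells were read from clusters of all passing cells, built without the cell cycle genes. NK cell/T cell-like cells held 83 of the 140 cycling cells, macrophage-like cells 24, dendritic cell-like cells 12, an unnamed cluster (cluster 7) 12 and neutrophil-like cells 9. None of the 55 B cell-like cells and none of the 33 cells of a small unnamed cluster led by Siglech met the rule, which allows shares of up to 6.49% and 10.6%. Both rule genes were detected in 69 of the 83 NK cell/T cell-like cells, 11 of the 24 macrophage-like cells, 4 of the 12 dendritic cell-like cells, 6 of the 12 cells of cluster 7 and 0 of the 9 neutrophil-like cells. The median number of mitotic genes was 44, 5.5, 3, 8 and 0 in the same order.

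At 1 dpw, 1 of 28 cycling cells was NK cell/T cell-like, and at 5 dpw 82 of 112 were. The 19 cells of Angptl4+/+ wounds at 1 dpw comprised 5 macrophage-like, 5 dendritic cell-like, 5 cluster 7 and 4 neutrophil-like cells. The 9 of Angptl4-/- wounds at 1 dpw comprised 3, 1, 2 and 2 of these and 1 NK cell/T cell-like cell. NK cell/T cell-like cells made up 49 of 63 cycling cells in Angptl4+/+ wounds at 5 dpw (77.8%, 65.5 to 87.3) and 33 of 49 in Angptl4-/- wounds (67.3%, 52.5 to 80.1). The rest at 5 dpw were 12 and 4 macrophage-like, 0 and 6 dendritic cell-like, 1 and 4 cluster 7 and 1 and 2 neutrophil-like cells.

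Within the NK cell/T cell-like class, 49 of 224 cells were cycling in Angptl4+/+ wounds at 5 dpw (21.9%, 16.6 to 27.9) and 33 of 213 in Angptl4-/- wounds (15.5%, 10.9 to 21.1). The ratio of the Angptl4-/- to the Angptl4+/+ share was 0.708 (0.475 to 1.06), an interval that includes 1. At 1 dpw, 0 of 35 (up to 10.0%) and 1 of 34 (2.94%, 0.0744 to 15.3) were cycling. Macrophage-like cells were cycling in 0.434%, 0.775%, 0.355% and 0.617% of cells in the 4 libraries. For Angptl4+/+ wounds the 5 to 1 dpw ratio in this class was 1.78 (0.631 to 5.05), and for Angptl4-/- wounds 1.74 (0.391 to 7.74). Both intervals include 1. With a rule of at least 2 UMIs the Angptl4-/- ratio was 3.91 (1.27 to 12.1), on 12 and 4 cells, and its interval excludes 1.

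**Figure D2:**
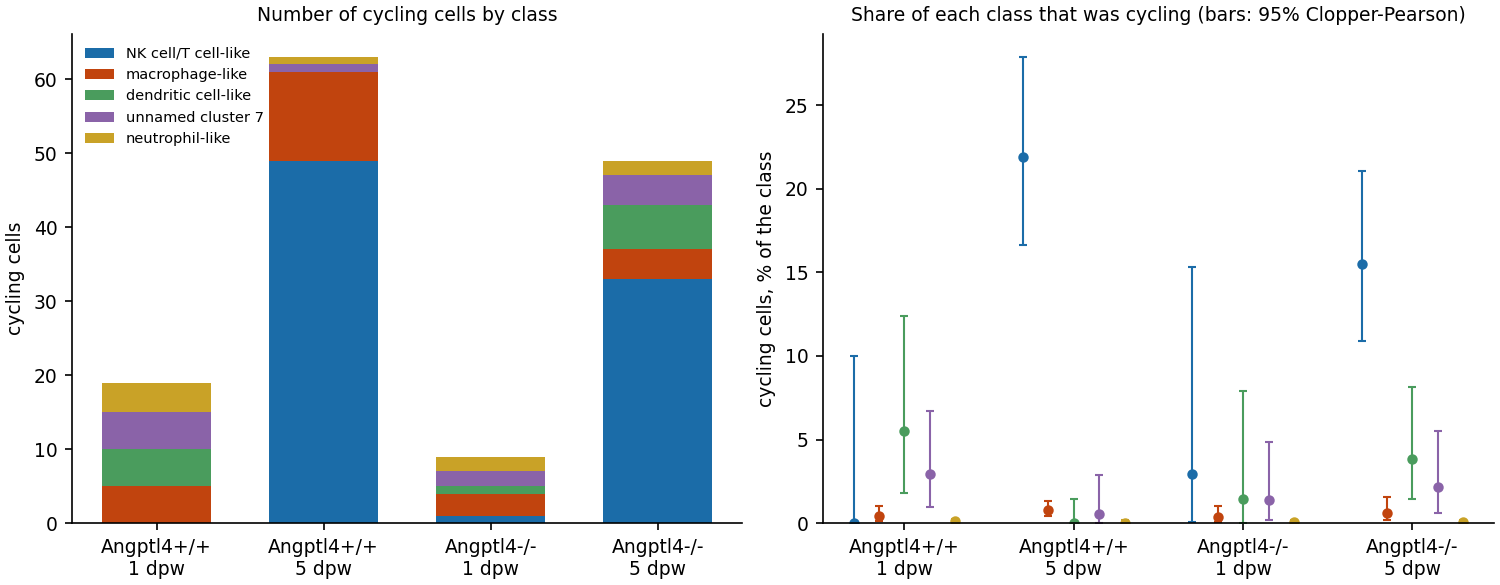
Stacked bars give the number of cycling cells in each library by class, and points with lines give the percent of the class that was cycling with its exact 95% binomial interval. NK cell/T cell-like cells at 5 dpw stand apart, with 49 and 33 cycling cells and shares of 21.9% and 15.5%.

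Lineage genes were also counted directly in the 140 cells. At least 2 UMIs of the 11 T cell genes (Cd3e, Trac and others) were seen in 0 of 19, 49 of 63, 2 of 9 and 33 of 49 cycling cells in the 4 libraries. For the 6 NK cell genes (Ncr1, Gzma and others) the numbers were 0, 24, 0 and 19. The macrophage list gave 15, 27, 5 and 19, the monocyte list 12, 57, 8 and 43, and the dendritic cell list 11, 19, 6 and 24. B cell genes reached 2 UMIs in 6, 33, 1 and 26 cycling cells, and genes of type 2 innate lymphoid cells in 3, 38, 2 and 26. Cells could pass several lists, so 2 UMIs of a list did not by themselves set a lineage. Neutrophil genes, led by S100a9, reached 2 UMIs in 19, 47, 9 and 37 cycling cells, but also in 98.6%, 82.5%, 98.3% and 93.9% of all other cells, so these UMIs did not mark lineage. None of the cycling cells had 2 UMIs of the fibroblast genes or of the haemoglobin genes, and 4 at 5 dpw had 2 or more of the keratinocyte genes. Pecam1, which leukocytes also express, was the leading endothelial gene, while Cdh5 and Emcn, which define endothelium, were at 0 in every library.

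The lymphocytes were divided by raw UMIs into T cells, with at least 2 UMIs of Cd3d, Cd3e and Cd3g (chains of the T cell receptor complex), and NK cells, with at least 2 of Ncr1, Klrb1c and Eomes and no T cell call. In Angptl4+/+ wounds at 5 dpw, 36 of 145 T cells (24.8%, 18.0 to 32.7) and 13 of 84 NK cells (15.5%, 8.51 to 25.0) were cycling. Angptl4-/- wounds at 5 dpw had 22 of 149 T cells (14.8%, 9.49 to 21.5) and 10 of 70 NK cells (14.3%, 7.07 to 24.7). After thinning, 20.8% (14.0 to 29.2) of T cells were called in Angptl4+/+ and 19.4% (12.8 to 27.4) in Angptl4-/- wounds, and 17.7% and 14.9% of NK cells. At 1 dpw the 2 cycling cells in the T cell gate were both in Angptl4-/- wounds. Of these, 1 lay in a macrophage-like cluster and met the gate by 2 Cd3d UMIs. It had 0 UMIs of Cd3e, Cd3g, Trac, Trbc2 and Lck and 108 of Fn1, which goes against the name T cell. The same cell is counted among the macrophage-like cells below. No NK cell cycled at 1 dpw among 9 and 13. On thinned counts at 1 dpw, 2 of 23 Angptl4+/+ and 2 of 18 Angptl4-/- T cells were called. For NK cells these numbers were 0 of 8 and 1 of 11. Cells with Cd4 UMIs, the co-receptor of helper and regulatory T cells, made up 25 and 17 of the cycling T cells at 5 dpw, and cells with Cd8a, the co-receptor of cytotoxic T cells, 4 and 1. In all there were 61 and 64 T cells with Cd4 and 17 and 24 with Cd8a. After thinning, 2 of 17 and 4 of 21 T cells with Cd4 were called, and 3 of 9 and 1 of 13 with Cd8a. Of the γδ-type T cells, with Trdc but no Trac UMIs, 0 of 11 and 0 of 16 were cycling, which allows up to 28.5% and 20.6%. Their median depths were 6400 and 6583 UMIs, and after thinning 1 of 11 and 1 of 16 were called.

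T cells with Foxp3, the master transcription factor of regulatory T cells (chrX:7573644-7595245, plus strand), held most of the cycling T cells. In Angptl4+/+ wounds at 5 dpw, 23 of 39 T cells with a Foxp3 UMI were cycling (59.0%, 42.1 to 74.4), against 13 of 106 without (12.3%, 6.69 to 20.1). In Angptl4-/- wounds, the numbers were 15 of 32 (46.9%, 29.1 to 65.3) and 7 of 117 (5.98%, 2.44 to 11.9). Foxp3 was seen in 63.9% and 68.2% of cycling T cells but in 14.7% and 13.4% of other T cells. No Foxp3 UMI was found in 2694 and 3498 neutrophil-like cells, at medians of 3218 and 3394 UMIs, which allows shares of up to 0.137% and 0.105% there.

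Depth moved with this pattern. After thinning, 4 of 13 T cells with Foxp3 and 19.6% of those without were called cycling in Angptl4+/+ wounds, and 4 of 11 and 17.7% in Angptl4-/- wounds. Thinning also lowered the call from at least 3 UMIs to at least 1, and the gates were drawn again on thinned counts. The part of depth alone in these moves was therefore not tested. The cycling T cells had medians of 18455.5 and 24548 UMIs, and the other T cells 6353 and 6510. With all cells thinned to 2000 UMIs, Foxp3 was seen in 19.4% (8.19 to 36.0) of cycling and 8.26% (3.85 to 15.1) of other T cells in Angptl4+/+ wounds, and in 13.6% (2.91 to 34.9) against 7.14% (3.32 to 13.1) in Angptl4-/- wounds, with overlapping intervals. The level as counts per 1000000 UMIs (CPM), summed over cells and so weighted to the deep ones, was 121 CPM (99.1 to 146) in cycling against 65.3 CPM (49.4 to 84.6) in other T cells of Angptl4+/+ wounds, a log2 ratio of 0.89 (0.41 to 1.38). In Angptl4-/- wounds cycling T cells had 106 CPM (83.6 to 133) and other T cells 56.3 CPM (42.3 to 73.5), with 0.92 (0.39 to 1.45) as log2 ratio. The summed levels differed beyond counting error in both libraries and the thinned shares did not. The 23 cycling Angptl4+/+ T cells with Foxp3 held 722231 of the 902987 UMIs summed over 36 cells, so depth and Foxp3 cannot be told apart in these sums.

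**Figure D3:**
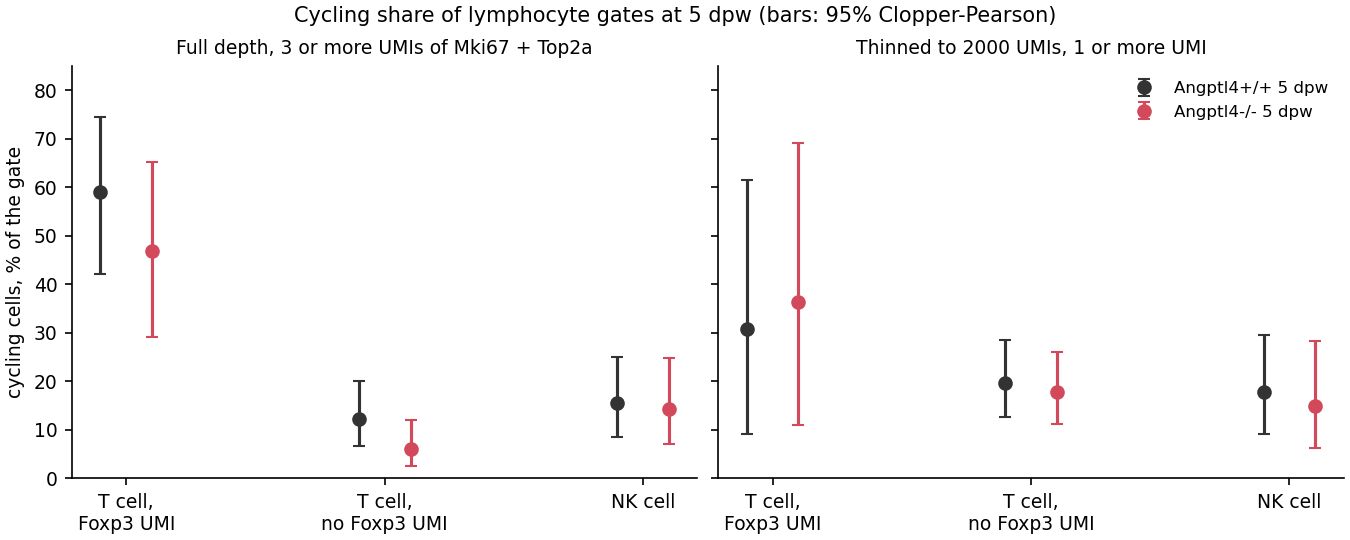
Points give the percent of lymphocytes that were cycling in each gate at 5 dpw, with exact 95% binomial intervals, on raw UMIs and after thinning every cell to 2000 UMIs. On raw UMIs T cells with Foxp3 reached 59.0% and 46.9%, and after thinning the values for T cells with and without Foxp3 had overlapping intervals.

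Cycling and other T cells at 5 dpw were then compared by summed UMIs. This is the same contrast as the rule, so the values describe the cells and support nothing about the genes that chose them. Mki67 was 1089 CPM in cycling and 14.9 CPM in other T cells of Angptl4+/+ wounds and 728 and 26.1 CPM in Angptl4-/- wounds. In the whole NK cell/T cell-like class, 8.97% of 7559 genes were at least 2-fold higher and 6.56% lower in cycling cells of both libraries. In the T cell gate, of 6895 genes with at least 50 UMIs, 9.79% were at least 2-fold higher and 8.31% at least 2-fold lower in both libraries. Because a cycle gene can pass this filter through the cycling cells alone, the list counts that follow are descriptions.

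Among cycle genes, the mitotic lists had larger median ratios than the replication lists. The other T cells were held below 3 UMIs of Mki67 and Top2a by the rule. This order of the lists is therefore a description and was not tested. Of the 16 measured licensing genes, 15 were at least 2-fold higher, with median log2 ratios of 2.59 in Angptl4+/+ and 2.97 in Angptl4-/- wounds. Mcm3, a subunit of the MCM helicase, was at 255 against 38.9 CPM and at 296 against 29.2 CPM. Of the 25 genes for DNA synthesis and nucleotides, 23 were higher, among them the replication clamp Pcna at log2 ratios of 1.48 and 1.99. All 22 measured spindle and cytokinesis genes were higher, with medians of 4.87 and 4.41, as were 18 of 19 mitotic kinase and checkpoint genes (medians 4.79 and 4.40) and 16 of 17 centromere and kinetochore genes. Ube2c was 517 CPM against 3.44 CPM in Angptl4+/+ wounds, where the other T cells held 3 UMIs in all. In Angptl4-/- wounds it had 135 UMIs in cycling and 0 in other T cells, at least 61.1-fold higher against a floor of 3 UMIs over the group. The linker histone gene Hist1h1b reached 1554 and 1222 CPM against 4.58 and 7.30 CPM, and all 23 genes for chromatin, condensin and tubulin were higher. Of 9 cell cycle transcription factors, 8 were higher. Foxm1, which drives mitotic genes, had 34 and 30 UMIs in cycling and 0 in other T cells of both libraries, at least 10.96-fold and 13.6-fold higher.

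Genes that brake division were compared in the same way. Btg1, an antiproliferative gene of resting lymphocytes, was 230 against 1136 CPM in Angptl4+/+ wounds and 249 against 1139 CPM in Angptl4-/- wounds, log2 ratios of -2.30 and -2.19. The related Btg2 was lower by log2 ratios of -1.47 and -1.53. Cdkn2c, an inhibitor of Cdk4 and Cdk6, was higher instead, at 68.7 against 10.3 CPM and 51.0 against 15.6 CPM. Cdkn1b, which holds cells in a resting state, had log2 ratios of -0.94 and -1.16. Of the 9 measured brakes, 1 was at least 2-fold higher and 2 lower in both libraries, beside 9.79% and 8.31% of all genes.

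Growth and cytokine receptor genes differed from one another. Il2ra, the high-affinity chain of the interleukin 2 receptor, was 481 against 104 CPM in Angptl4+/+ wounds and 543 against 112 CPM in Angptl4-/- wounds, log2 ratios of 2.21 and 2.28. Il7r, the receptor that sustains resting T cells, was 129 against 765 CPM and 152 against 714 CPM, log2 ratios of -2.57 and -2.24. Ribosome biogenesis genes were at least 2-fold higher in 9 of 10 cases, led by Npm1 at 1774 against 639 CPM and 2297 against 629.8 CPM. Glycolysis genes were higher by 2-fold in 2 of 12 cases, a count near the 9.79% of all genes, with medians of 0.52 and 0.78.

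Of 7 interferon-induced genes, 5 were at least 2-fold lower in both libraries, beside 8.31% of all genes. Ifit3, an antiviral gene, had 2 UMIs in cycling and 35 in other T cells of Angptl4+/+ wounds, and 0 and 74 in Angptl4-/- wounds. Of 7 measured genes on a cytotoxic list chosen after values were seen, 5 were lower by that measure. Ifng, which encodes interferon gamma, was 5.54 against 72.1 CPM and 12.7 against 117 CPM, and the chemokine gene Ccl5 had log2 ratios of -2.08 and -1.35. The granzyme gene Gzma had log2 ratios of -0.50 and -0.09, with 248 of its 290 UMIs in cycling Angptl4-/- T cells in 1 cell. Of 9 neutrophil genes, 7 were lower, beside the same 8.31%, S100a8 by log2 ratios of -1.33 and -2.15, and the part of free RNA in the lower genes was not tested.

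A regulatory T cell list of 15 genes, also chosen after values were seen, had 12 measured and 1, Il2ra, at least 2-fold higher in both libraries, no larger a share than the 9.79% of all genes. Its medians were 0.84 and 0.70, against 0.03 and -0.03 over all genes. Ikzf2, a transcription factor of regulatory T cells, was 760 against 320 CPM and 623 against 337 CPM. Ctla4, an inhibitory receptor, differed by a log2 ratio of 1.54 (1.19 to 1.89) in the Angptl4+/+ library and of 0.68 (0.34 to 1.03) in the Angptl4-/- one. For Klrg1, a receptor of differentiated T cells, the log2 ratios were 2.68 (2.04 to 3.38) and 0.73 (0.25 to 1.21). Trac, the constant part of the T cell receptor α chain, was level, at 415 against 377 CPM and 380 against 422 CPM.

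**Figure D4:**
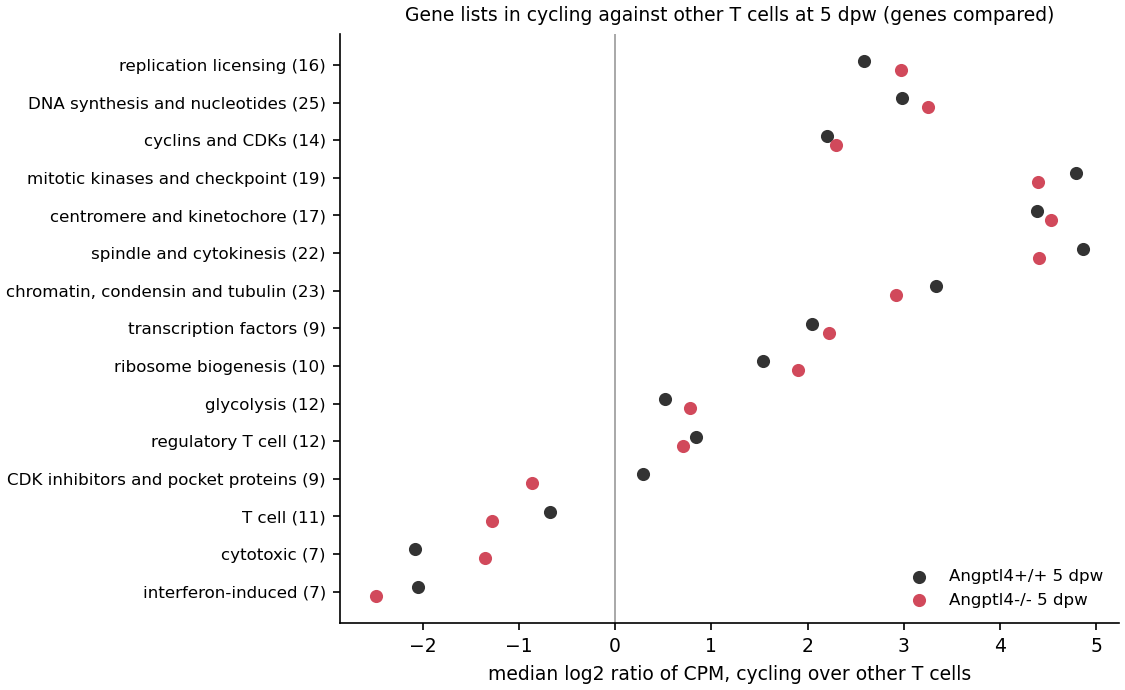
Each point is the median log2 ratio of CPM, cycling over other T cells at 5 dpw, over the measured genes of 1 list (their number in parentheses), in Angptl4+/+ (dark) and Angptl4-/- (red) wounds. Spindle and cytokinesis genes lie far to the right (4.87 and 4.41), ribosome biogenesis genes above 0 (1.54 and 1.90), and interferon-induced genes below 0 (-2.05 and -2.49).

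Of 3831 genes with at least 50 UMIs in the NK cell gate at 5 dpw, 4.05% were at least 2-fold higher and 2.53% lower in cycling than in other NK cells of both libraries. Ncr1, Klrb1c and Eomes define the gate, so cycling and other NK cells were both chosen to carry them. None of the 6 NK cell genes was 2-fold apart in both, and Klrb1c, an NK receptor, was in Angptl4+/+ wounds, at a log2 ratio of -1.04. Ncr1, the activating receptor NKp46, had 438 CPM (355 to 535) in cycling against 573 CPM (508 to 644) in other NK cells of Angptl4+/+ wounds, and 509 CPM (417 to 614) against 648 CPM (574 to 728) in Angptl4-/- wounds. Gzma was 6556 against 6399 CPM and 3764 against 5581 CPM. The pore-forming gene Prf1 had log2 ratios of -0.07 (-0.35 to 0.19) and -0.53 (-0.83 to -0.24).

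Of the division genes, 12 of 12 spindle genes, 7 of 7 centromere genes, 18 of 19 chromatin genes, 6 of 8 mitotic kinase and checkpoint genes, 6 of 7 licensing genes, 9 of 13 DNA synthesis genes and 7 of 10 cyclins and CDKs were at least 2-fold higher in cycling NK cells of both libraries. Ube2c was 306 against 2.06 CPM in Angptl4+/+ wounds, where the other NK cells held 1 UMI, and 556 against 11.4 CPM in Angptl4-/- wounds. Ccl5 was lower, at 1502 against 5531 CPM and 1541 against 4803 CPM. Btg1 was lower by log2 ratios of -1.36 and -1.64. Spp1, which encodes the secreted protein osteopontin, was higher, at 402 against 90.7 CPM and 1300.3 against 281 CPM, although 156 of the 276 UMIs in Angptl4-/- cells came from 1 cell. None of the 9 measured ribosome biogenesis genes was 2-fold apart in both libraries, with medians of 0.39 and 0.59. Whether T cells and NK cells differed in this was not tested.

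Cycling NK cell/T cell-like cells were compared between genotypes at 5 dpw, with 33 Angptl4-/- and 49 Angptl4+/+ cells. Of 5229 genes with at least 50 UMIs, 63 were at least 2-fold higher in Angptl4-/- cells (1.2%) and 56 lower (1.07%). None of the 16 licensing genes and none of the 25 DNA synthesis genes was 2-fold apart, with medians of 0.11 and 0.07, and the spindle list had a median of -0.42, with 1 of 22 genes at least 2-fold lower. Median log2 ratio over all genes was -0.03.

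Some of these genes rested on 1 cell. Igha, Jchain and Mzb1, genes of antibody-secreting cells, had 371, 151 and 101 UMIs in Angptl4-/- cells and 0 in Angptl4+/+ cells, all of them in the same cell. This was the only cycling cell of the class outside both lymphocyte gates, with 47943 UMIs, 66 of Mki67, 44 of Top2a and 58 mitotic genes. The macrophage gene C1qa had 71 UMIs in Angptl4-/- cells, all in 1 cell, and 1 UMI in Angptl4+/+ cells. The deepest cycling cell, with 110833 UMIs, all 62 mitotic genes and a Foxp3 UMI, gave 15.7% of the summed UMIs of cycling Angptl4-/- T cells.

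Other genes had their UMIs in several cells. Areg, which encodes the epithelial growth factor amphiregulin, had 117 UMIs in 13 of 49 Angptl4+/+ cells and 8 UMIs in 6 of 33 Angptl4-/- cells, 104 CPM (86.2 to 125) against 8.28 CPM (3.58 to 16.3) and a log2 ratio of -3.65 (-4.90 to -2.63). In T cells that were not cycling, Areg had 36 UMIs in 5 of 109 Angptl4+/+ cells and 24 in 6 of 127 Angptl4-/- cells. Trdc, the constant part of the δ chain, had 102 UMIs in 11 Angptl4+/+ and 26 in 7 Angptl4-/- cells, but 76 of the 102 lay in 1 cell. The NK cell receptor gene Klra8 had 90 UMIs in 9 and 12 in 4 cells. Batf3, a transcription factor gene, went the other way, with 3 UMIs in 2 Angptl4+/+ and 47 in 5 Angptl4-/- cells. Areg, Klra8 and Batf3 came among the genes furthest apart, and with 1 library per genotype such differences cannot be told apart from differences between libraries.

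The genotype itself was checked in the cycling cells. Angptl4 had 0 and 7 UMIs in Angptl4+/+ wounds at 1 and 5 dpw and 0 in both Angptl4-/- libraries, too few to check the label by these cells alone. Over all other passing cells it had 47 and 71 UMIs in Angptl4+/+ and 0 and 0 in Angptl4-/- wounds. Ifi202b, an interferon-inducible gene, was at 0 in all Angptl4+/+ cycling cells and had 7 and 12 UMIs in Angptl4-/- ones. Hebp1, a haem-binding protein gene, had 1 and 6 UMIs in Angptl4+/+ and 7 and 29 in Angptl4-/- cycling cells.

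Cycling macrophage-like cells numbered 5, 12, 3 and 4 in the 4 libraries. In Angptl4+/+ wounds at 1 dpw, 1 cell had 37 mitotic genes and the other 4 had 1 to 5. At 5 dpw the 12 Angptl4+/+ cells had 0 to 47 mitotic genes, with a median of 4. The Angptl4-/- cells had 25, 32 and 49 at 1 dpw, and 2, 42, 43 and 50 at 5 dpw. Csf1r, the growth factor receptor of macrophages, was detected in 5 of 5, 11 of 12, 3 of 3 and 4 of 4 cells.

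Compared with other macrophage-like cells, 92 of 10477 genes were at least 2-fold higher in cycling cells of all 4 libraries (0.878%) and 25 lower (0.239%). The higher genes included 7 of 13 mitotic kinase and checkpoint genes, 6 of 7 spindle genes, 3 of 7 centromere genes and 11 of 21 chromatin genes. From the other cycle lists, 5 of 17 licensing genes, 6 of 24 DNA synthesis genes, 1 of 11 cyclins and CDKs and 0 of 9 transcription factors were higher. Cdk6 was lower, and differences between the lists were not tested. Pclaf, a partner of the replication clamp, had 4, 36, 26 and 55 UMIs in cycling cells and 8, 4, 0 and 6 in the 1147, 1537, 842 and 644 other cells. Its 4 UMIs in Angptl4+/+ wounds at 1 dpw lay in 1 cell. The inhibitors Cdkn2c and Rbl1 were among the higher genes. Atad2, a chromatin ATPase gene on none of the lists, was 72.2, 149, 221 and 229 CPM in cycling against 11.6, 17.0, 11.97 and 13.1 CPM in other cells.

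The lower genes were led by genes of wound macrophages. Spp1 was 72.2, 219, 17.0 and 0 CPM in cycling against 5133, 1313, 3800 and 938 CPM in other cells, with 0 UMIs in the 4 Angptl4-/- cells at 5 dpw. Apoe, the lipid carrier, was 751, 2413, 17.0 and 1626 CPM against 2116, 7636, 2122 and 6449 CPM, with all 185 UMIs of Angptl4-/- cells at 5 dpw in 1 cell. Fn1, which encodes fibronectin, did not share this, with log2 ratios of -0.74, -0.10, 0.83 and 0.15. Of the 4194 macrophage-like cells, 2 clusters held 2498 and 1696. The cluster led by Ptges, Sdc1 and Mmp12 gave 4, 5, 0 and 0 of the cycling cells and the one led by Retnla and Folr2 gave 1, 7, 3 and 4, so the cycling Angptl4-/- cells came from the second cluster alone, which held 299 of 845 and 277 of 648 Angptl4-/- cells of the class.

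Between conditions, cycling macrophage-like cells can be set side by side for 1509 genes with at least 50 UMIs. From 1 to 5 dpw, 30 genes were at least 2-fold higher in both genotypes (1.99%) and 20 lower (1.33%). The complement genes C1qa, C1qb and C1qc were among the higher, C1qa with 10 and 323 UMIs in Angptl4+/+ and 0 and 32 UMIs in Angptl4-/- cells. In Angptl4-/- cells at 5 dpw, the highest cell for each gene held 27 of the 32 C1qa, 82 of the 104 C1qb and 32 of the 34 C1qc UMIs, and the cell with 82 C1qb UMIs was among the top doublet scores. Il1rn, which encodes the interleukin 1 receptor antagonist, was lower, with log2 ratios of -1.77 and -1.76. In Angptl4-/- against Angptl4+/+ cells, 30 genes were higher at both times (1.99%) and 56 lower (3.71%). Hist1h1b (log2 ratios of 3.93 at 1 dpw and 2.44 at 5 dpw, with 25 of 26 and 81 of 98 Angptl4-/- UMIs in 1 cell each), Birc5 (1.69 and 2.37) and Cks1b (2.40 and 2.26), all division genes, were among the higher. S100a8 was lower, with 10 against 580 UMIs at 1 dpw and 24 against 300 at 5 dpw, but cells among the top doublet scores held 465 of the 580, 128 and 115 of the 300 and 20 of the 24. These sums rest on 3 to 12 cells each, of which the Angptl4+/+ ones had fewer mitotic genes, and cell content and genotype cannot be told apart.

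Cluster 7 mixed kinds of cells, and its cycling cells were described by the Xcr1 and Clec9a UMIs they carried. Its leading genes included Mcpt4, Cma1, Cpa3, Ace and Xcr1. Of the marker lists carried by at least 50% of its cells, the monocyte list scored best, with 2 or more UMIs in 99.0%. The cluster stayed unnamed because its leading genes held more mast cell than monocyte genes. Those mast cell genes came from few cells. Outside the rule, 0.147% of its cells had Mcpt4, 0.147% Cma1 and 1.47% Cpa3, against 96.5% with the monocyte gene Plac8. Of its 37 cells with at least 3 UMIs of Xcr1 and Clec9a, receptors of the cross-presenting type 1 dendritic cells, 6 were cycling (16.2%, 6.19 to 32.0). All 6 had both rule genes, with 5, 25, 26, 31, 40 and 45 mitotic genes, and 5 of them came from 5 dpw. Of the 29 cells with 1 or 2 UMIs of these receptors, 1 was cycling (3.45%, 0.0873 to 17.8), with a single rule gene and 9 mitotic genes. Of the 626 cells with no UMI of either receptor, 5 met the rule (0.799%, 0.260 to 1.85), all at 1 dpw, none with both rule genes and with 3 to 7 mitotic genes. Median depth was 20280, 13493 and 11842 UMIs in these sets, and the split by Xcr1 and Clec9a was made after the values were seen.

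Ccr7, the receptor that guides dendritic cells to lymph nodes, was seen in 63.3% of other dendritic cell-like cells and in 9 of the 12 dendritic cell-like members. The 5 of Angptl4+/+ wounds at 1 dpw had 23 to 85 Ccr7 UMIs but 2 to 7 mitotic genes. In Angptl4-/- wounds at 5 dpw, 2 of 6 cells had 48 and 52 mitotic genes with 8 and 22 Ccr7 UMIs, and the other 4 had 1 to 6 mitotic genes.

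All 9 neutrophil-like members had a single rule gene. They had 0 to 3 mitotic genes and 1605 to 5249 UMIs, and S100a9 was present in each at 5 to 826 UMIs. The highest had 8 Mki67 UMIs and 1 mitotic gene. Of 8 genes of neutrophil precursors, 6 were at 0 UMIs in these cells, while Camp had 2 UMIs in 2 cells and Lcn2 77 UMIs in 7 cells, at depths too low to read the zeros.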

How the data were processed

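The authors deposited gene-by-cell matrices of UMI counts with no normalization, 1 per library, for 20069 barcodes and 31053 genes. The submitters' processing notes name Cell Ranger 3.1.0, Seurat 3.0 and mm10. Cells needed at least 200 genes and at most 10% mitochondrial UMIs. Cell classes came from Seurat 5.3.0 (2000 variable genes without the cycle lists, 30 dimensions, resolution 0.5), named from marker lists. A doublet caller marked 7 cells, so its own threshold was not used, doublets were kept, and the 903 cells with scores above their library's 95th percentile were left out as an alternative. Counts were summed per library and class, scaled to counts per 1000000 (CPM) and compared with a floor of 3 UMIs. Intervals are Clopper-Pearson (shares), exact Poisson (CPM), Katz (ratios of shares) and exact conditional binomial (log2 ratios). Thinning to 2000 UMIs left shallower cells out. The named genes are the check genes, the most abundant members of each list and the genes furthest up or down by the smallest log2 ratio, with exceptions marked as seen first. Members, lists and comparisons were chosen with earlier results of these data known. Lymphocyte gates were added after the members were counted. Promoters came from the RefSeq table. Only the summed comparison and the thinning were tested on simulated Poisson counts, which hold no spread between cells. Clusters and gates were not simulated.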

Additional observations from a re-analysis of the deposited data

Results flagged for a closer look

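In 3 classes the cycling share moved in opposite directions from 1 to 5 dpw in the 2 genotypes, and the difference between genotypes was not tested. In cluster 7 the change was -2.40 percentage points of the class in Angptl4+/+ wounds (5 of 171 to 1 of 191 cells) and 0.825 points in Angptl4-/- wounds (2 of 147 to 4 of 183 cells), a difference of -3.23 points. In dendritic cell-like cells it was -5.49 points in Angptl4+/+ wounds (5 of 91 to 0 of 252 cells) and 2.35 points in Angptl4-/- wounds (1 of 68 to 6 of 157 cells), a difference of -7.85 points. In neutrophil-like cells the changes were -0.0658 and 0.00312 points, a difference of -0.0689 points, on 4, 1, 2 and 2 cells. Each rests on 6 or fewer cycling cells per library, and 1 library per group gives no error for it. Cells with both rule genes numbered 0, 1, 1 and 4 in cluster 7 and 1, 0, 0 and 3 among dendritic cell-like cells. By this count cluster 7 did not move in opposite directions in the 2 genotypes. Neutrophil-like cells had 0 cells with both rule genes in every library.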

How the results depend on the processing

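No paired analysis was possible because each condition had 1 library and no result came from a test. Of 156 recomputed values of 25 results, 123 stayed within their interval, or within 1.5 times for a count of genes, 33 moved, and no ratio whose interval excludes 1 changed direction. Ratios whose interval includes 1 had no set direction, and 14 of their alternatives lay on the other side of 1, each with an interval that includes 1. The 5 to 1 dpw ratio of cycling shares in Angptl4+/+ wounds was 2.02 with at least 2 UMIs, 7.10 with at least 5, 1.80 after thinning, 2.11 with at least 3 UMIs of Ccnb1, Cdk1, Birc5 and Ube2c and 25.4 with both genes required, an alternative chosen after seeing the data. In Angptl4-/- wounds it was 2.28 after thinning and 12.8 with both genes. The Angptl4-/- to Angptl4+/+ ratio at 1 dpw was 1.67 with both genes. Within macrophage-like cells this ratio was 4.09 at 1 dpw with at least 5 UMIs and 4.78 at 5 dpw with the 4 other genes. With at least 5 UMIs, only 4 cycling cells were left in Angptl4-/- wounds at 1 dpw. Of these, 0 were NK cell/T cell-like (0%, up to 60.2) and 3 macrophage-like (75.0%, 19.4 to 99.4). Counts of genes also moved. In macrophage-like cells against others, higher genes numbered 50 at a minimum of 200 UMIs and 17 after thinning, and lower genes 54 with median-of-ratios scaling and 4 after thinning. Between 5 and 1 dpw, higher genes numbered 115, 7 and 5 and lower genes 53, 2 and 4 at a minimum of 20 UMIs, of 200 UMIs and after thinning. Between genotypes the numbers were 103, 4 and 2 higher and 133, 13 and 8 lower, with 17 higher without integration. In NK cell/T cell-like cells, a comparison chosen with its alternatives after seeing the data, 308 and 149 were higher and 211 and 125 lower at 200 UMIs and after thinning, which test fewer genes or fewer UMIs. The cause of the other moves was not tested. Raw-UMI rules favour deep cells, and 28 cells at 1 dpw limit every statement about that time.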
